A study of Homo sapiens with 3 samples.

Results

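The 10 genes described here encode enzymes that supply the building blocks of DNA and the pyrimidine nucleotides of RNA. They were chosen by name for their place in these pathways, with RRM1, RRM2 and RRM2B for ribonucleotide reductase, TYMS, TK1 and DUT for thymidylate supply, and CAD, DHODH, UMPS and CTPS1 for uridine and cytidine nucleotides. All 10 were found among the 25247 gene symbols of the deposited tables, and all 10 passed the filter used for testing (at least 1 FPKM in 1 or more libraries). FPKM, the unit of the tables, is a level corrected for gene length and for the number of mapped fragments in the library.

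RNA was sequenced from OCI-AML2 R50, a derivative of OCI-AML2, an established line of acute myeloid leukaemia (AML). Per the labels, the medium was MEMα with 15% FBS and 50 µM cytarabine (Ara-C), a deoxycytidine analogue used in AML chemotherapy, and this holds for all libraries. The control group had 1 library and no drug other than cytarabine is named for it, and the romidepsin group had 2 libraries from cells given romidepsin for 18 h. Romidepsin is a cyclic peptide that inhibits class I histone deacetylases. Its dose, a vehicle, whether cytarabine stayed in the medium during the 18 h, whether R50 is a clone or a pool, and whether the romidepsin libraries came from separate cultures were not stated in the labels. The p-values below therefore reflect only how far these 2 libraries differ, which may be technical. With 1 control library, culture and romidepsin cannot be told apart.

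Ribonucleotide reductase removes the 2′-hydroxyl group of ribonucleotides and so makes the precursors of all deoxynucleotides. RRM1 is its catalytic large subunit, RRM2 the small subunit that is made mainly in S phase, and RRM2B a small subunit induced by DNA damage and used outside S phase. Thymidylate has separate sources: TYMS methylates dUMP with a folate cofactor, TK1 phosphorylates thymidine taken up or salvaged, and DUT turns dUTP into dUMP, which both feeds TYMS and keeps uracil out of DNA. The pyrimidine ring is built by CAD, DHODH and UMPS in turn, ending in UMP, and CTPS1 aminates UTP to CTP. In AML cells the deoxycytidine nucleotides among these pools compete with cytarabine, which must itself be phosphorylated before it enters DNA.

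Promoter sequences from RefSeq (build GRCh38.p14, while the authors' files use hg19) were available for 9 of the 10 genes, RRM2B not being among them. Each window ran from 250 bases before to 50 bases after an annotated start, with 1 to 4 starts per gene. The sequences below are shown because the members divide by one of the motifs searched. Each is given 5′ to 3′ on the strand of the gene, in lower case with the motif in capitals. E2F factors drive genes of the G1 to S transition, and their motif was searched as TTCCCGC or TTGGCGC on both strands.
TK1 (chr17:78187053-78187077, minus strand): taaagcggtcggcGCGGGAAccagg
RRM2 (chr2:10122363-10122392, plus strand): ccggggcccgcgcGCGCCAAggccgccgag
TYMS (chr18:657603-657632, plus strand): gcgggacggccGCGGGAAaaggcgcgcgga
DUT (chr15:48332150-48332179, plus strand): ggctgGCGGGAAatttcggttTTGGCGCgc
RRM1 (chr11:4094435-4094684, plus strand): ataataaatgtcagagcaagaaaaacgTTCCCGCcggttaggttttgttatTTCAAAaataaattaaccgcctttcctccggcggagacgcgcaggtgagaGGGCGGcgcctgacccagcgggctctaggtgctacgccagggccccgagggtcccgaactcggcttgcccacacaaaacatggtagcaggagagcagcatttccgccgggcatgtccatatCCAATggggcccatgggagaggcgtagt
In the RRM1 stretch, which covers the 250 bases before the start, the capitals mark in order the E2F motif, the cell cycle homology region TTTGAA on the reverse strand, the GC box GGGCGG and the CCAAT box.

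The E2F letters were found for 5 of the 9 genes, namely RRM1, RRM2, TYMS, TK1 and DUT, which are the genes of deoxynucleotide supply. They were not found in the windows of CAD, DHODH, UMPS and CTPS1, the genes of UMP and CTP synthesis. RRM2 and TK1 had 2 starts and DUT had 4, and each of these had the motif in 1 window only. CTPS1 also had 2 starts. A gene with more windows has more chances of a match. Of all 27305 genes in the promoter table, 11.0% had the motif in at least 1 window (9.23% of 35116 windows). The CCAAT box, on either strand, was present for RRM1, RRM2, TK1, CAD and DHODH, against 39.7% of all genes. TK1 and RRM2 carried it more than once near a start, as in these stretches.
TK1, distal (chr17:78187106-78187135, minus strand): gcgctgATTGGccccatggcggcggggccg
TK1, proximal (chr17:78187075-78187104, minus strand): ctcgtgATTGGccagcacgccgtggtttaa
RRM2 (chr2:10122638-10122667, plus strand): tggcacagCCAATgggaagggccggggcac
The E-box CACGTG, the site of MYC and its partner MAX and its own reverse complement, was matched only for DHODH, against 8.77% of all genes. GC boxes (GGGCGG on either strand, which can overlap an E2F match) were present for 7 of the 9 genes, against 48.3% of all genes, and TTTGAA for RRM1, DUT and UMPS, against 18.2%. GC boxes occurred more than once in a window for CTPS1, CAD, DHODH, TK1 and DUT, so in both branches. The stretches below, from the UMP and CTP branch, show the E-box of DHODH and GC boxes of CTPS1 and CAD.
DHODH (chr16:72008573-72008602, plus strand): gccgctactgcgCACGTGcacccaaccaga
CTPS1 (chr1:40979630-40979659, plus strand): gcgcactccaggccCCGCCCCGCCCcgcgc
CAD (chr2:27217179-27217368, plus strand): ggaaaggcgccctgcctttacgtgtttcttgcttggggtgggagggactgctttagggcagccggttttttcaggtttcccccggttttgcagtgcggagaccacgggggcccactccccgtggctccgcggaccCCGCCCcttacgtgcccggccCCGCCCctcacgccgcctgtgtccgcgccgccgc
These matches describe letters in the windows and do not show binding.

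By the spacing of low FPKM values in genes with a single transcript, the control held about 17100000 fragments, and the romidepsin libraries about 20900000 and 20800000. With transcript lengths from GENCODE, this puts about 280 fragments behind the lowest value here (DHODH in romidepsin replicate 2) and about 9411 behind the highest number (DUT in replicate 1), so counting alone gives an SD of at most 5.98%. All 10 myeloid markers (PTPRC, CD33, ANPEP, MPO, SPI1, LYZ, CEBPA, CSF3R, CD4 and ELANE) reached 1 FPKM in at least 1 library. Their summed level went from 6227 FPKM in the control to 3905 and 3853 FPKM, and LYZ held most of this (4258, then 2630 and 2596 FPKM). On the deposited scale CD33, MPO, SPI1, LYZ, CSF3R and ELANE were lower, while PTPRC, ANPEP, CEBPA and CD4 were higher. ELANE went from 581 to 233 and 236 FPKM and SPI1 from 208 to 106 and 100.2 FPKM. ANPEP went from 0.654 to 5.40 and 5.24 FPKM, PTPRC from 71.3 to 96.7 and 95.9 FPKM, and CEBPA from 223 to 265 and 262 FPKM. Of 10 T and B cell markers 3 reached 1 FPKM, with summed levels that went from 7.40 FPKM to 9.72 and 10.5 FPKM, and CD79B held most of this. Of 10 erythroid markers only EPOR did (sum 6.01, then 10.8 and 10.7 FPKM), and 7 of the list, the globin genes among them, were at 0 in every library. Of 10 fibroblast and epithelial markers 4 did (COL1A1, DCN, LUM and PDGFRB), the sum going from 0.661 to 9.90 and 9.48 FPKM, while EPCAM, KRT18 and COL1A2 were at 0. Their part in the results was not tested.

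After romidepsin the genes of UMP and CTP synthesis were lower, TYMS was lower, and TK1 and RRM2 were higher. All 10 genes were called by limma at an adjusted p under 0.05, 7 lower and 3 higher, with a median difference of -0.45 on the log2(FPKM + 1) scale. This has to be read against the whole table, where 76.5% of 11708 genes were called (34.7% higher and 41.8% lower, 4057 against 4896) with a median of -0.050. These calls take the lone control to be no more variable than the romidepsin pair, and in simulated libraries with a more variable control many unchanged genes were called. When the libraries were given equal sums of FPKM, the all-gene median moved to 0.16 and 65.2% of the called genes were higher instead of 45.3%. Under that scaling 75% of all genes were called (48.9% higher and 26.1% lower). Of the 10 genes, 5 were then lower, 3 were higher and RRM1 and DUT were not called, and the same counts came from quantile normalization. With no filter on low genes, which left 2047 higher and 2088 lower among 25247 symbols, 5 of the 10 genes were called lower and 1 higher. In bulk RNA, a different share of cells in a cell cycle phase and a different amount of RNA per cell cannot be told apart. A rule of at least 2-fold in both romidepsin libraries was also applied, on FPKM + 1. By this rule, which 10.5% of all genes met (3.08% lower and 7.43% higher), CAD and DHODH qualified as lower and none of the 10 as higher. With equal sums or a pseudocount of 5 only CAD did, with DHODH at -0.84 and -0.75. CTPS1 lay just outside the rule as deposited, at -0.98 and -1.02 in replicates 1 and 2. In FPKM without the added 1 it was 2.04-fold lower on average.

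**Figure D1:**
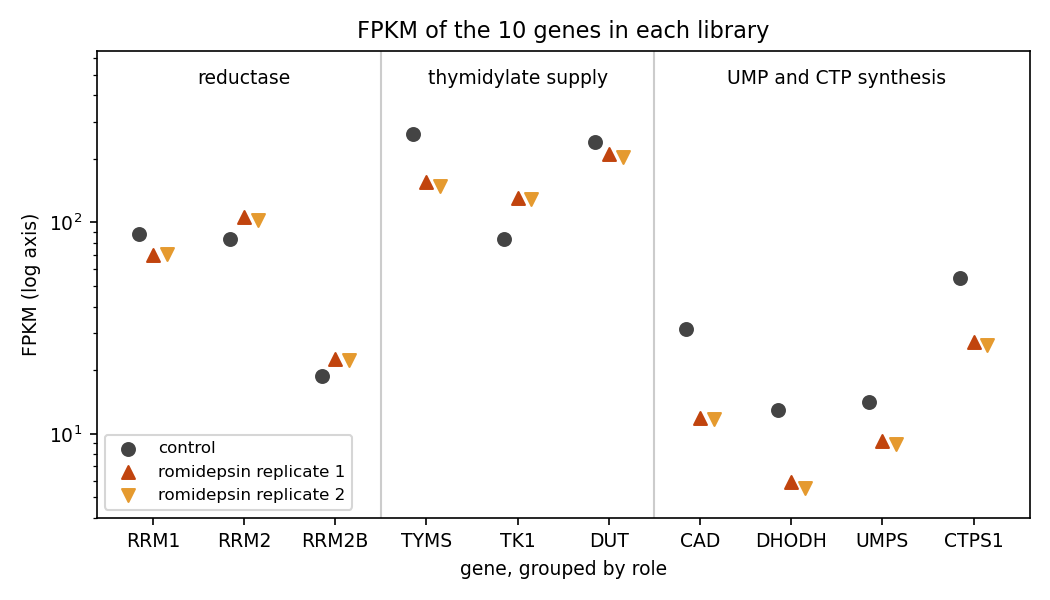
FPKM (log axis) of each gene in the control library (circles) and the romidepsin libraries (triangles), grouped by role. The romidepsin points lie close together for every gene. On the deposited scale the log2 difference was above 0 for RRM2, RRM2B and TK1 and below 0 for the other 7. Of all 11708 tested genes, 5427 were above 0 and 6281 below.

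In the order of the genes by FPKM, a level per length, 4 of the 10 genes held the same place in all libraries (RRM2, CTPS1, UMPS and DHODH). TYMS (263 FPKM) led DUT (241 FPKM) in the control, and DUT led TYMS in both romidepsin libraries. CAD led RRM2B in the control, and RRM2B led CAD in both romidepsin libraries. RRM1, RRM2 and TK1 stood between 83.4 and 88.3 FPKM in the control, which has no spread of its own to separate them. After romidepsin TK1, RRM2 and RRM1 stood apart in that order, and no neighbouring genes overlapped between the 2 libraries. DHODH was the lowest of the 10 in every library. The summed level of the 10 genes was 891 FPKM without romidepsin, against 749 and 732 FPKM with it. As a share of the summed FPKM of named genes this was 0.145%, 0.144% and 0.141%.

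Among the reductase subunits both small ones were higher, while the large one was lower as deposited but not called under the other scalings. RRM1 was at 88.3 FPKM in the control and at 70.4 and 71.2 FPKM in the romidepsin libraries. The log2 difference was -0.32 (SE 0.036, adjusted p = 0.000138). That call was lost with equal sums (-0.077, adjusted p = 0.094) and with quantile normalization (-0.086, adjusted p = 0.0624). RRM2 was at 83.6 FPKM in the control and at 106 and 103 FPKM after romidepsin. Its log2 difference of 0.32 (SE 0.037, adjusted p = 0.000161) was 0.56 with equal sums and 0.55 with quantile normalization. With no filter on low genes the call of RRM2 was lost (adjusted p = 0.0768).

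RRM2B, the damage-inducible small subunit, went from 18.7 FPKM in the control to 22.6 and 22.2 FPKM after romidepsin. The difference was 0.25 (SE 0.047, adjusted p = 0.0019), and with no filter the call was lost (adjusted p = 0.0611). The ratio of RRM2 to RRM1 within a library, which does not change when a library is multiplied by 1 factor, was 0.946 without romidepsin and 1.504 and 1.445 with it. RRM2B made up 18.3% of the small subunit FPKM in the control and 17.6% and 17.8% after romidepsin on the deposited scale. The log2 differences of RRM2 and RRM2B were 0.55 and 0.33 with quantile normalization, which can change ratios within a library. The summed FPKM of the 3 subunits was 191 in the control and 198 ± 1.99 (SD, n = 2) after romidepsin on the deposited scale. Their share of the summed FPKM of named genes was 0.0311% in the control and 0.0382% and 0.0379% after romidepsin.

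The sources of thymidylate moved in opposite directions. TYMS was at 263 FPKM in the control and at 155 and 149 FPKM after romidepsin. It was 1.73-fold lower as deposited, with a log2 difference of -0.79 (SE 0.036, adjusted p = 1.62e-06). This difference was smaller with equal sums (-0.55) and with quantile normalization (-0.51). TK1, the salvage kinase, was at 83.4 FPKM in the control and at 131 and 130 FPKM after romidepsin. It was 1.56-fold higher as deposited, the largest rise among the 10 genes, with a log2 difference of 0.64 (SE 0.034, adjusted p = 3.22e-06). This difference was larger, at 0.88, both with equal sums and with quantile normalization. DUT was at 241 FPKM in the control and at 210 and 205 FPKM after romidepsin. Its difference of -0.21 (SE 0.034, adjusted p = 0.000799) turned to 0.026 with equal sums (adjusted p = 0.498) and to 0.069 with quantile normalization (adjusted p = 0.0718), so no direction is given for DUT.

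The ratio of TK1 to TYMS was 0.317 without romidepsin, against 0.847 and 0.868 with it, 2.70 times as high on average. TK1 thus held 24.1% of the joint FPKM of TK1 and TYMS in the control and 45.9% and 46.5% after romidepsin. Against DUT, TYMS went from a ratio of 1.09 to 0.736 and 0.730. The labels name no stranded kit or counting, and TYMS overlaps ENOSF1, a gene on the opposite strand. ENOSF1 was listed at 3.36 FPKM in the control and at 1.91 and 1.99 FPKM after romidepsin. AFMID starts next to TK1 on the opposite strand and does not overlap it in GENCODE v29, and it was at 17.8 FPKM in the control and at 21.0 and 20.9 FPKM after romidepsin (0.22, adjusted p = 0.00365), higher like TK1. The part of these neighbours in the TYMS and TK1 values was not tested. Processed pseudogenes of DUT, RRM2 and TYMS are known, and the sources used here do not say how fragments that match several places were assigned, so the levels of these genes are uncertain to that extent.

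**Figure D2:**
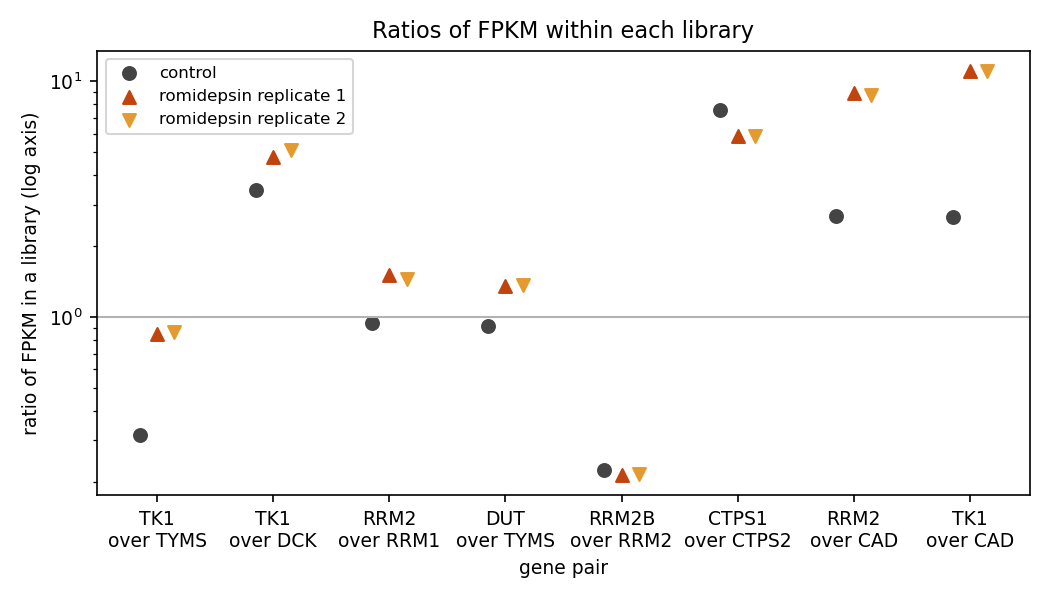
Ratio of the FPKM of 2 genes within each library (log axis), for the control (circles) and the romidepsin libraries (triangles); the line marks equal FPKM. The ratio of TK1 to TYMS went from 0.317 to 0.847 and 0.868, while that of RRM2B to RRM2 stayed between 0.214 and 0.224.

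The enzymes that build UMP were lower together. CAD, a single protein that carries out the opening steps of the pathway, was at 31.2 FPKM in the control and at 11.9 and 11.7 FPKM after romidepsin. It was 2.65-fold lower (log2 difference -1.33, SE 0.050, adjusted p = 7.27e-07) and ranked 127 from the bottom among the 11708 tested genes. DHODH, the enzyme of the inner mitochondrial membrane that passes electrons to ubiquinone, summed to 13.0 FPKM in the control and to 5.89 and 5.54 FPKM after romidepsin. It was 2.27-fold lower (-1.06, SE 0.068, adjusted p = 7.22e-06). DHODH is the one member with 2 rows in the tables. The main row read 12.3, 5.47 and 4.89 FPKM in the control and romidepsin replicates 1 and 2, and the minor row 0.689, 0.418 and 0.648 FPKM.

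UMPS, the bifunctional enzyme that ends in UMP, was at 14.2 FPKM in the control and at 9.28 and 8.94 FPKM after romidepsin. It was 1.56-fold lower (-0.59, SE 0.059, adjusted p = 6.6e-05), and the call was just lost with no filter (adjusted p = 0.0526). Summed, CAD, DHODH and UMPS stood at 58.4 FPKM in the control and at 27.0 and 26.2 FPKM after romidepsin, a 2.20-fold difference on the deposited scale. Their share of the summed FPKM of named genes fell less, from 0.00952% to 0.00519% and 0.00506%. CTPS1, the CTP synthase needed by dividing lymphocytes, was at 54.5 FPKM in the control and at 27.2 and 26.3 FPKM after romidepsin. It was 2.04-fold lower (-1.0, SE 0.044, adjusted p = 1.39e-06), and every scaling kept it lower (-0.76 with equal sums, -0.85 with quantile normalization). Its paralogue CTPS2 was at 7.20, 4.63 and 4.48 FPKM in the control and romidepsin replicates 1 and 2, also lower (-0.56, adjusted p = 0.000268). The ratio of CTPS1 to CTPS2 was 7.56 in the control and 5.87 in each romidepsin library.

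**Figure D3:**
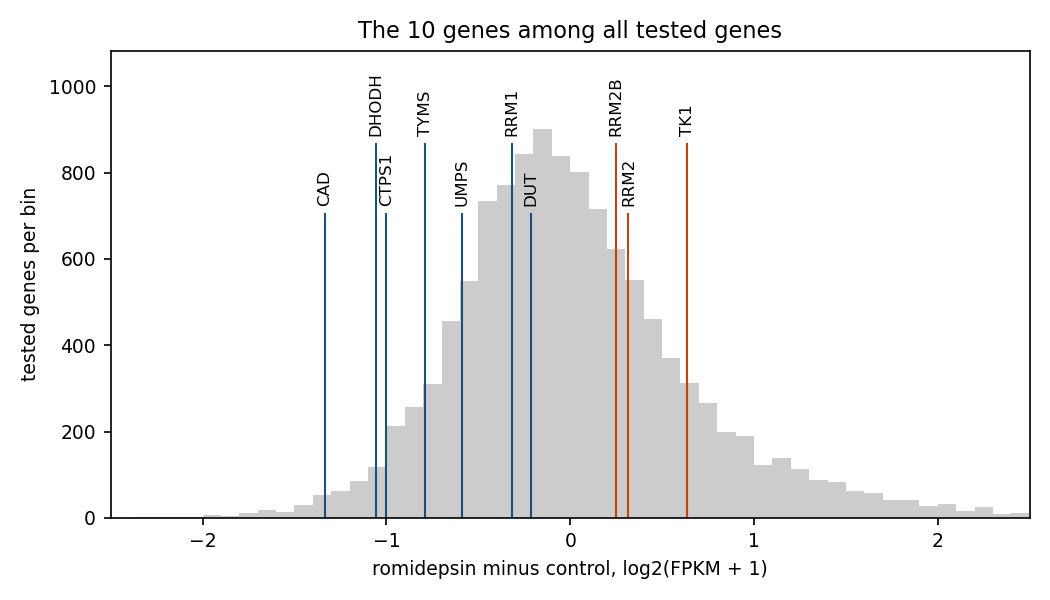
Histogram of the difference between romidepsin and control on the log2(FPKM + 1) scale over the tested genes (bars, genes per bin of 0.1; 69 genes above 2.5 lie outside the axis), with lines for the 10 genes (blue lower, orange higher). CAD, DHODH and CTPS1 sit in the lower tail and TK1 is the highest of the 10 at 0.64.

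Differences of the 10 genes were also read relative to the median of all genes, which moves with the scaling. For CAD the relative log2 difference was -1.28 as deposited, -1.27 with equal sums and -1.19 with quantile normalization. In the same order it was -1.01, -1.01 and -1.04 for DHODH, -0.95, -0.93 and -0.80 for CTPS1, and -0.54, -0.53 and -0.53 for UMPS. The genes of UMP and CTP synthesis thus lay well below the median of all genes as deposited and with quantile normalization. Equal sums multiply all values of a library by the same factor, which subtracting the median nearly removes. Values relative to the median with equal sums are therefore no separate check, for these or the other genes. For TYMS it was -0.74, -0.71 and -0.46, and for TK1 it was 0.69, 0.71 and 0.93. For RRM2 it was 0.37, 0.39 and 0.60, for RRM2B 0.30, 0.32 and 0.38, and for RRM1 -0.26, -0.24 and -0.036. DUT lay at -0.16 and -0.14 but at 0.12 with quantile normalization.

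**Figure D4:**
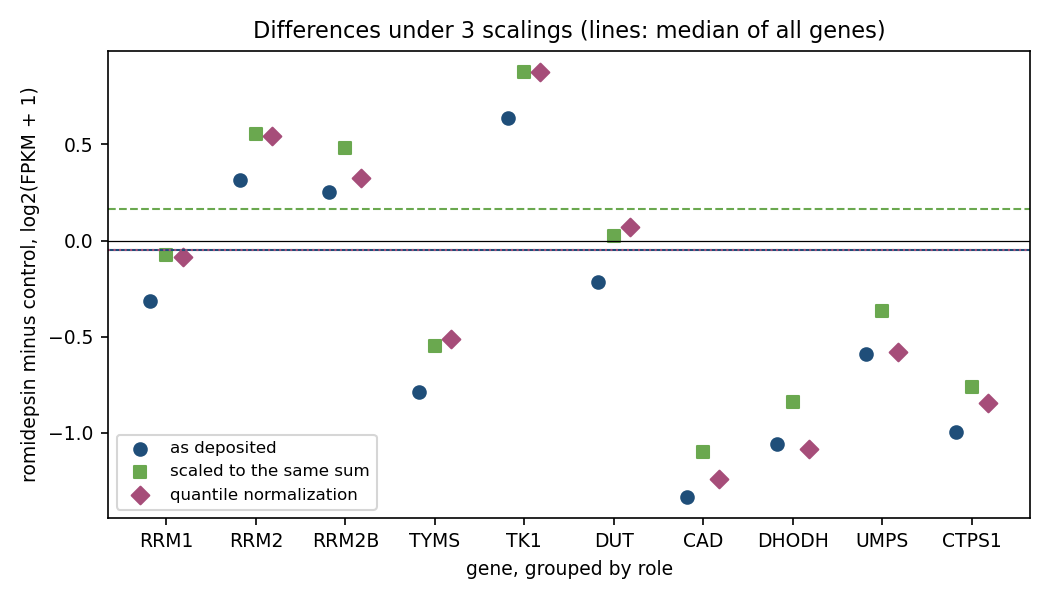
Difference between romidepsin and control on the log2(FPKM + 1) scale for each gene, as deposited (circles), with equal sums (squares) and with quantile normalization (diamonds); coloured lines give the median of all genes under each scaling (-0.050, 0.16 and -0.050). DUT changes sign between scalings and the other 9 genes keep theirs.

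Other genes of deoxynucleotide supply were also mostly lower as deposited. Of 24 tested rows (25 genes, NME1 and NME2 sharing 1 row), 14 were called lower and 5 higher, with a median of -0.40. The counts were 12 lower and 9 higher with equal sums and 6 lower and 3 higher with no filter. Among all tested genes, 41.8% were called lower and 34.7% higher as deposited, and 26.1% and 48.9% with equal sums. The kinase that follows TYMS and nucleoside diphosphate kinases, which make nucleoside triphosphates, were among those that fell. DTYMK, which phosphorylates dTMP, went from 96.4 FPKM in the control to 65.5 and 61.7 FPKM (-0.59, adjusted p = 1.71e-05). NME4, a mitochondrial nucleoside diphosphate kinase, showed the largest fall in the list, from 158 to 62.0 and 65.8 FPKM (-1.29, adjusted p = 5.46e-07). The joint row of NME1 and NME2, the main cytosolic kinases of this kind, went from 1290 to 745 and 740 FPKM (-0.80).

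DCTD, which deaminates dCMP to dUMP and so feeds TYMS, fell from 51.5 to 29.5 and 30.9 FPKM (-0.75, adjusted p = 5.78e-06). NT5C, a deoxynucleotidase, fell from 42.3 to 19.8 and 20.6 FPKM (-1.03). SAMHD1, a hydrolase of dNTPs that also cleaves the active form of cytarabine, rose from 68.4 to 92.5 and 93.7 FPKM (0.44, adjusted p = 2.34e-05). GLRX, which encodes glutaredoxin, one of the proteins that can pass electrons to the reductase, rose from 24.5 to 64.9 and 65.6 FPKM (1.38, adjusted p = 2.8e-07). NT5M, the mitochondrial deoxynucleotidase, rose from 7.90 to 11.5 and 12.1 FPKM (0.52).

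DCK, the salvage kinase of deoxycytidine that activates cytarabine, was at 24.1 FPKM in the control and at 27.4 and 25.4 FPKM after romidepsin. It was not called as deposited (0.12, adjusted p = 0.0827) and was called higher with equal sums (0.35, adjusted p = 0.00159) and with quantile normalization (0.23, adjusted p = 0.0283). The ratio of TK1 to DCK was 3.46 in the control and 4.79 and 5.11 after romidepsin.

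Of 23 other genes of pyrimidine salvage, breakdown, PRPP supply and nucleoside transport, 20 were tested, and 12 were called lower and 5 higher (median -0.17). The counts were 8 lower and 8 higher with equal sums (median 0.067) and 2 lower and 5 higher with no filter. The shares over all genes were 41.8% lower and 34.7% higher as deposited, and 26.1% and 48.9% with equal sums. UCK2, a uridine and cytidine kinase read in a joint row with MIR3658, fell from 42.7 to 27.3 and 28.8 FPKM (-0.59), UPRT from 8.38 to 5.58 and 4.51 FPKM (-0.64), and PRPS1, which makes PRPP, from 45.8 to 28.8 and 30.5 FPKM (-0.61). Of their paralogues, UCK1 was not called as deposited (0.093, adjusted p = 0.133) and was higher with equal sums (0.32, adjusted p = 0.00149), and the call of PRPS2 (-0.16, adjusted p = 0.00599) was lost with equal sums (0.072, adjusted p = 0.133). SLC29A2, an equilibrative nucleoside transporter, fell from 8.88 to 4.92 and 4.34 FPKM (-0.81).

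The 3 largest rises in this list were those of UPB1, UPP1 and DPYD, which act in the breakdown of uridine and uracil. UPB1, the last enzyme of that route, rose from 1.21 to 5.39 and 5.72 FPKM (1.57), and DPYD, the first and rate-limiting one, from 5.18 to 10.2 and 10.6 FPKM (0.88). UPP1, which splits uridine to uracil, rose from 2.03 to 5.97 and 5.64 FPKM (1.17). DPYS, which acts between DPYD and UPB1, stayed at or under 0.02 FPKM and was not tested. CDA, which inactivates cytarabine by deamination, was at 50.7 FPKM in the control and at 47.1 and 45.6 FPKM after romidepsin, a call (-0.13, adjusted p = 0.0236) that turned with equal sums (0.11, adjusted p = 0.0474).

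Genes known to act on this pathway were read next, as values beside those of the 10 genes. Of 32 transcription factors and cell cycle regulators, 20 were called lower and 7 higher (median -0.22). The counts were 11 lower and 11 higher with equal sums and 6 lower and 4 higher with no filter. The shares over all genes were 41.8% lower and 34.7% higher as deposited, and 26.1% and 48.9% with equal sums. MYC, a known activator of nucleotide synthesis genes, was at 362 FPKM in the control and at 119 and 116 FPKM after romidepsin. E2F1 fell from 20.8 to 14.8 and 15.3 FPKM (-0.44, adjusted p = 0.000159) and E2F5, a repressor-type family member, from 8.83 to 3.44 and 3.93 FPKM (-1.07), while E2F7, also a repressor, rose from 2.94 to 4.02 and 4.40 FPKM (0.40, adjusted p = 0.00422), a call lost with quantile normalization (0.19, adjusted p = 0.119). CDKN1A, the cell cycle inhibitor p21, went from 1.51 to 62.2 and 58.8 FPKM.

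CCNF, the F-box protein that targets RRM2 for degradation, rose from 17.6 to 22.5 and 22.7 FPKM (0.34, adjusted p = 0.000371). FZR1, which directs the APC/C ubiquitin ligase to RRM2 and TK1 proteins, rose from 11.0 to 15.0 and 15.3 FPKM (0.43, adjusted p = 0.000215). These are transcript levels, and protein was not measured.

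The cell cycle lists stand beside all-gene shares of 41.8% called lower and 34.7% higher as deposited, and 26.1% and 48.9% with equal sums. Of 20 S phase genes, 13 were called lower and 3 higher (median -0.26), against 9 lower and 9 higher with equal sums (median -0.020) and 7 lower and 2 higher with no filter. PCNA, the sliding clamp of DNA polymerases, went from 333 to 300 and 306 FPKM (-0.14), a difference that turned to 0.10 with equal sums, and MCM7 from 255 to 125 in each romidepsin library (-1.03). Of 20 genes of G2 and M phase, 10 were called higher and 5 lower (median 0.094). The counts were 15 higher and 1 lower with equal sums (median 0.33) and 4 higher and 1 lower with no filter. TOP2A was at 84.7, 126 and 130 FPKM and PLK1 at 94.2, 74.7 and 72.7 FPKM in the control and romidepsin replicates 1 and 2. The part of the cell cycle in the values of RRM2, TK1 and TYMS was not tested.

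**Figure D5:**
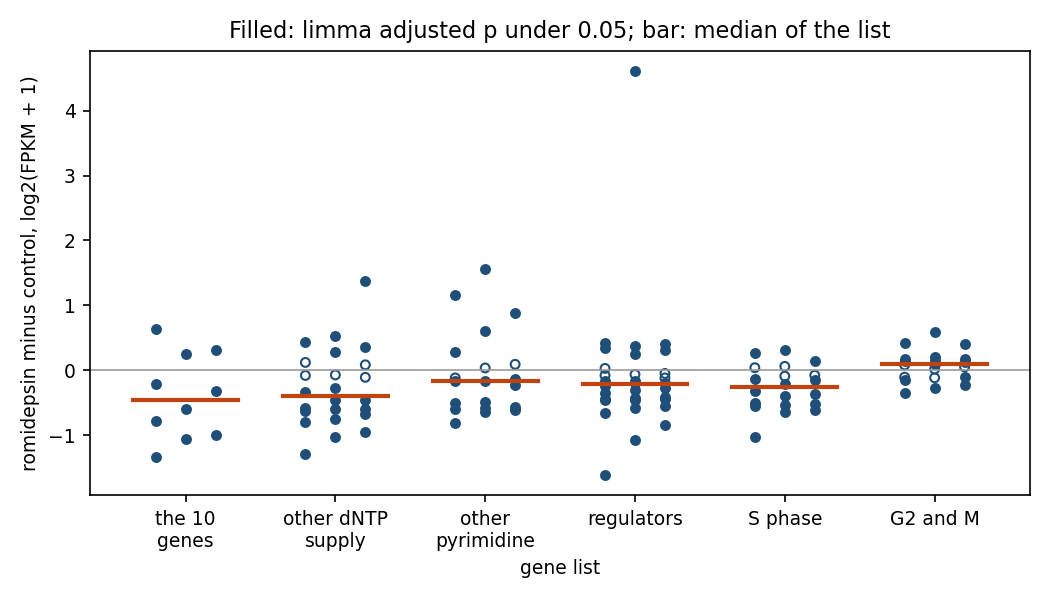
Difference between romidepsin and control on the log2(FPKM + 1) scale for the tested genes of each list; filled points had a limma adjusted p under 0.05, open points did not, and bars give medians. The medians run from -0.45 for the 10 genes to 0.094 for genes of G2 and M phase, and CDKN1A is the point at 4.61.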

How the data were processed

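The authors deposited 1 table of 28837 rows per library with FPKM values, per the file headers. The submitters' processing notes list hg19 and the tools TopHat, Cufflinks and Cuffdiff, while their versions and settings, the annotation and any strand use are not given in the sources used. Rows without a gene name (1770, 21.1% to 22.3% of the summed FPKM) or named by a bare number (27) were left out, and rows of 1 symbol were summed (720 of 25247 symbols). A list gene inside a joined symbol was read from that row. Genes with at least 1 FPKM in 1 or more libraries were compared as log2(FPKM + 1), a scale that understates changes of low genes, with limma 3.58.1 in R 4.3.3 (eBayes with trend, Benjamini-Hochberg over 11708 genes, threshold 0.05). The fit had 1 residual degree of freedom and a prior of 6.06, so the single control was taken to be as variable as the treated pair. On simulated libraries that varied alike it called nearly all genes given a known change and few others, but with a more variable control it also called many unchanged genes. Motifs and sums used Python 3.11.15 and pandas 2.3.3, and plots matplotlib 3.10.9.

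The members and lists were chosen with earlier results of these data known. Named genes were all 10 members, the 3 largest rises and falls past the threshold in each other list (at most 2 genes for each cell cycle list) and a preset group: DCK, SAMHD1, DCTD, DTYMK, CTPS2, UCK2, CDA, E2F1, MYC, CCNF and PCNA. Some genes that this rule names are not reported here. The joint row of NME1 and NME2, UCK1, PRPS2 and the untested DPYS were added after their values were seen. Depth was read from genes with 1 GENCODE transcript, and annotation there is of another build than hg19, so it is approximate. Alternatives were other pseudocounts, filters, scalings, single rows, no trend and leaving out a romidepsin library.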

Additional observations from a re-analysis of the deposited data

How the results depend on the processing

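The lone control limits every result, since its own variation was not measured. Of 8 alternatives with a test, 7 were read gene by gene and no trend only as counts (3 of the 10 genes higher and 7 lower). Across those 7, CAD, CTPS1, TYMS and TK1 kept their direction and their call. So did DHODH in the 6 that could be run for it, since its 2 rows leave it out where only single rows were used. DUT reversed, to 0.026 with equal library sums and 0.069 with quantile normalization. Without romidepsin replicate 1 or 2 there is no residual degree of freedom and hence no test. All 10 genes kept their direction, but the remaining library closely resembles the one left out and meets the same control. This is therefore no separate check. No paired analysis was possible because the control has 1 library, with no replicate number in its label.

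With no filter, which tests 25247 symbols, calls came to 2047 higher and 2088 lower for all genes, 1 higher and 5 lower for the 10 genes, 3 higher and 6 lower for other deoxynucleotide genes, 5 higher and 2 lower for other pyrimidine genes, 4 higher and 6 lower for regulators, 2 higher and 7 lower for S phase, and 4 higher and 1 lower for G2 and M. With equal library sums, 3061 of all genes were lower, 9 other deoxynucleotide and 8 other pyrimidine genes higher, 11 regulators higher and 11 lower, 9 S phase genes higher and 1 G2 and M gene lower. With quantile normalization, 8 other deoxynucleotide and 7 S phase genes were higher and 1 G2 and M gene lower. A mean of at least 5 FPKM left 3 other pyrimidine genes higher, and no trend left 6 G2 and M genes higher and 3 lower. The 2-fold rule was met by 1308 higher and 543 lower genes with a pseudocount of 0.1, by 282 and 176 with a pseudocount of 5, by 463 higher genes with a mean of at least 5 FPKM and by 172 lower genes with equal library sums. Without romidepsin replicate 1 or 2, 951 to 957 genes were higher and 424 to 429 lower by that rule.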
